A study of Homo sapiens with 3 samples.

Results

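The proteins of the cytosolic ribosome are encoded by a large family of short and very abundant mRNAs. The members described here are the protein-coding GENCODE 29 genes whose symbol is RPL or RPS with a number and at most 1 of the letters A, L or X, together with RPSA, RPLP0, RPLP1 and RPLP2. That rule found 81 genes among the 52992 genes of the tables, with 749 annotated transcripts. Of these, 80 reached a mean of 10 estimated counts and were among the 14082 genes tested, 48 in the large and 32 in the small subunit. The other member, RPL10L, was under that minimum.

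The RNA that 3 proteins bound in lysates was sequenced, with 1 library per protein. The lysates came from J82 cells, a long-established line of human bladder cancer. The proteins were glutathione S-transferase (GST) alone, GST joined to wild-type ZFP36L1, and GST joined to the Ala mutant of ZFP36L1, whose replaced residues the labels do not give. ZFP36L1 belongs to a family of zinc finger proteins that bind AU-rich sequence, above all UAUUUAU, in the 3′ untranslated region (3′ UTR) of an mRNA. GST alone is the background of the pull-down. All 3 came from cells grown to near confluence and lysed in protein extraction buffer. The GST table carries another run code than the tables of both ZFP36L1 proteins, so sequencing run and GST cannot be told apart.

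The libraries held 19137867 (GST), 19845386 (wild type) and 19153483 (Ala) estimated counts. Of 12 urothelial and epithelial markers, 4 reached 1 TPM (a transcript abundance scaled to a fixed total) in any library, KRT7, KRT8, KRT18 and EPCAM, while UPK3A, KRT5 and KRT19 were at 0 in all 3. All 4 mesenchymal markers, and none of the 9 leukocyte, erythroid and hepatocyte markers, reached 1 TPM. The summed level of the urothelial and epithelial list was 713, 63.3 and 1080 TPM for GST, wild type and Ala, and that of the mesenchymal list 1010, 98.1 and 644 TPM. Nearly all of the mesenchymal sum was VIM (998, 67.5 and 635 TPM), while FN1 had 8.27, 21.7 and 6.53 TPM and ZEB1 3.55, 7.33 and 1.67 TPM. Their part in the results below was not tested.

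Ribosomal proteins are made in equal numbers, since each mature ribosome holds a single copy of nearly all of them, and only the stalk proteins RPLP1 and RPLP2 are present in more. Their mRNAs are the classic members of the TOP class: transcription starts at a C followed by a run of pyrimidines, the 5′ terminal oligopyrimidine tract, through which mTOR signalling and LARP1 control their translation. They are long-lived mRNAs with very short 3′ UTRs, unlike the unstable cytokine and growth-factor mRNAs for which the ZFP36 proteins are known.

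The 5′ ends are shown first because the tract was found both in members that were low and in members that were high with wild type. RefSeq promoters (GRCh38.p14) were matched for 64 of the 81 members, and 44 of them (68.8%) had an unbroken run of at least 5 C or T over the annotated start, against 833 of 9726 other tested genes (8.56%). Each line gives 10 bases before and 15 from the start on the coding strand, with that run in capitals. RPL12 (chr9:127451392-127451416, minus strand), RPL24 (chr3:101686704-101686728, minus) and RPLP2 (chr11:809957-809981, plus) were far below GST with wild type. RPS23 (chr5:82278340-82278364, minus), RPL37A (chr2:216498834-216498858, plus) and RPS21 (chr20:62387093-62387117, plus) were above it.
RPL12: cgatttccggCCTCTCggctttcgg
RPL24: atgaTTCTCTCTTTCTTTTCgccat
RPLP2: tcggcgCCTTCCTTTTCCTCCCTgt
RPS23: cggtgCTTCTCTCTTTCgctcaggc
RPL37A: gcgTCTCTTCCTTTCTgggctcgga
RPS21: ctagctgCTTCCTTTCTCTCTCgcg
A run of at least 5 over the annotated start did not separate higher from lower members. The median log2 ratio of wild type over GST was -2.17 over the 44 measured members with such a run and -2.44 over the 19 with a shorter run or none. A run that is missing at the annotated start says only that these letters are not there. Of the 5 lowest members, RPL12 and RPL24 have such a run, and RPL27, RPL19 and RPL13 do not.

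The 3′ ends are shown because UAUUUAU is the site that ZFP36L1 is known to bind. In the most abundant protein-coding transcript of each gene, 6 of 77 members with an annotated 3′ UTR (7.79%) held it, against 31.2% of 11373 other genes. The median 3′ UTR was 55 bases in the members and 977 in the others, and the shares depend on that length. Among 3′ UTRs of up to 100 bases the site was in 0 of 54 members and 1.47% of other genes. Above 100 and up to 300 bases it was in 3 of 14 members (21.4%) and 6.18% of others, and over 300 bases in 3 of 9 (33.3%) and 37.6%. The 6 members were RPL14, RPL37, RPL39, RPL39L, RPS4X and RPS26. The windows below are from GENCODE 29 transcripts (GRCh38), written as RNA with the site in capitals. They are RPL39-201 (chrX:119786642-119786668, minus) and its copy RPL39L-203 (chr3:187121103-187121129, minus), RPL37-204 (chr5:40834045-40834071, minus), RPS26-201 (chr12:56044633-56044659, plus) and RPS4X-201 (chrX:72272384-72272410, minus). RPL23-206 (chr17:38849207-38849233, minus) is a minor long isoform of a gene whose main transcripts lack the site.
RPL39: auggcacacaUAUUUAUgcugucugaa
RPL39L: auggcacacaUAUUUAUgcuguaucaa
RPL37: ggaagcuuuuUAUUUAUuguuguuuuu
RPS26: cucgccuagcUAUUUAUguaaauuaaa
RPS4X: aaucccggagUAUUUAUcucccccgcc
RPL23: guaaauugaaUAUUUAUaaaacaacag
In RPL39 and RPL39L the site lies at the same place, position 26 of the 3′ UTR. Neither RPS21 nor RPL37A, the highest members with wild type, held UAUUUAU in that transcript. RPL37A-206 holds the shorter AUUUA near its end, at position 49 of a 3′ UTR of 59 bases (chr2:216501443-216501463, plus; AUUUA in capitals).
RPL37A: aaauggguuaAUUUAuguaac

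Setting wild-type ZFP36L1 against GST asks which RNAs the fusion recovered beyond the GST background. Ribosomal protein mRNAs took 12.6% of all counts with GST, 4.74% with wild type and 16.4% with the Ala mutant. The large-subunit mRNAs took 8.31%, 2.74% and 10.4%, and the small-subunit mRNAs 4.28%, 2.0% and 6.08%, in the same order. The median member stood at 2454 TPM with GST, 604.3 with wild type and 2754 with Ala. The wild-type library was therefore the low one, and the share was lower for both subunits. Mitochondrial genes had the opposite order, at 10.2% with GST, 14.9% with wild type and 7.22% with Ala.

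Between wild type and GST, 58 of 80 members were lower and 2 were higher. Lower and higher here mean a ratio of at least 2-fold once libraries were scaled with TMM factors (trimmed means of log ratios), with a 95% counting interval that excluded 1. Over all genes tested, 34.2% were lower and 25.5% higher. With a single library per protein there is no replicate check, so no p-value is given, and the intervals cover counting error only. The median log2 ratio of the members was -2.23, with quartiles of -2.98 and -0.92, against -0.03 over all genes. With only the most abundant protein-coding transcript of each gene, 6 members were higher. A ratio compares shares of libraries. Weaker recovery, a smaller pool in the lysate and more of other RNAs in the library cannot be told apart here. Input RNA was not analysed.

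**Figure D1:**
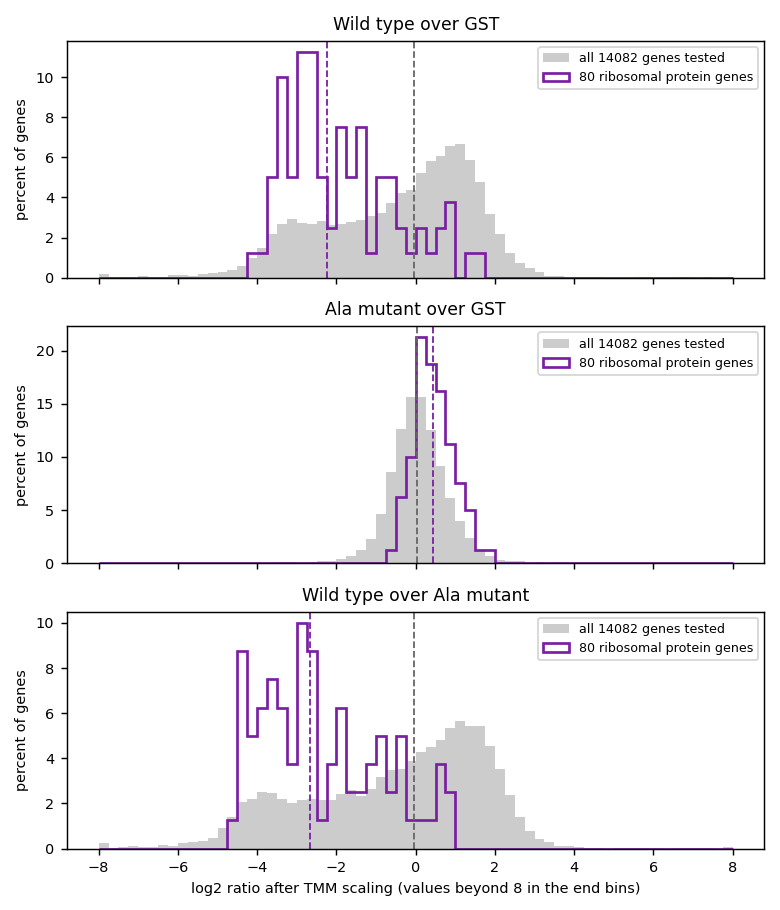
Distribution of log2 ratios (x axis) as percent of genes (y axis) for all 14082 genes tested (grey) and the 80 ribosomal protein genes (outline), with dashed lines at the medians. The members' median is at -2.23 for wild type over GST, 0.44 for Ala over GST and -2.66 for wild type over Ala.

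The large subunit stood lower than the small. Of its 48 measured mRNAs 39 were lower and 1 higher, with a median log2 ratio of -2.67. The small subunit had 19 lower and 1 higher among 32, and its median was -1.68. The difference of the medians was -0.98, and it was -0.61 with only transcripts annotated as protein-coding, -0.53 with only the most abundant of these and -0.58 with a fit on GC content and length removed. Genes are not replicates of a condition, so this is a description with no test, and the ranges overlapped almost wholly, from -4.02 to 1.46 in the large and up to 1.62 in the small subunit.

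The lowest member was RPL27, a large-subunit protein, at 3143 TPM with GST, 224.7 with wild type and 3103 with Ala. It was 16.2-fold lower with wild type than with GST (log2 -4.02, interval -4.10 to -3.95). RPL12, at the base of the stalk, stood at 3640, 296 and 3613 TPM (log2 -3.78 for wild type over GST). In each of these mRNAs the GST and Ala libraries were close together and the wild-type library alone was low. RPL24, which helps to bridge the subunits, had 3465, 264.7 and 2202 TPM (-3.72). RPL13 had 2937, 270.2 and 4149 TPM (-3.63), and RPL19 had 3302, 310.1 and 2873 TPM (-3.63). All 5 belong to the large subunit.

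The most abundant members did not share a single pattern. RPL35, at the exit of the peptide tunnel, led with 13850 TPM for GST, 1879 for wild type and 15630 for Ala, 8.51-fold lower with wild type than with GST. RPS3 and RPS2, both on the mRNA path of the small subunit, had 6371, 1269 and 11300 TPM and 6263, 1190 and 10320 TPM. RPL26, also at the tunnel exit, stood at 7829, 6271 and 6735 TPM, with a log2 ratio of -0.60 for wild type over GST. RPL37A was the most abundant member of the wild-type library and is described with the exceptions.

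**Figure D2:**
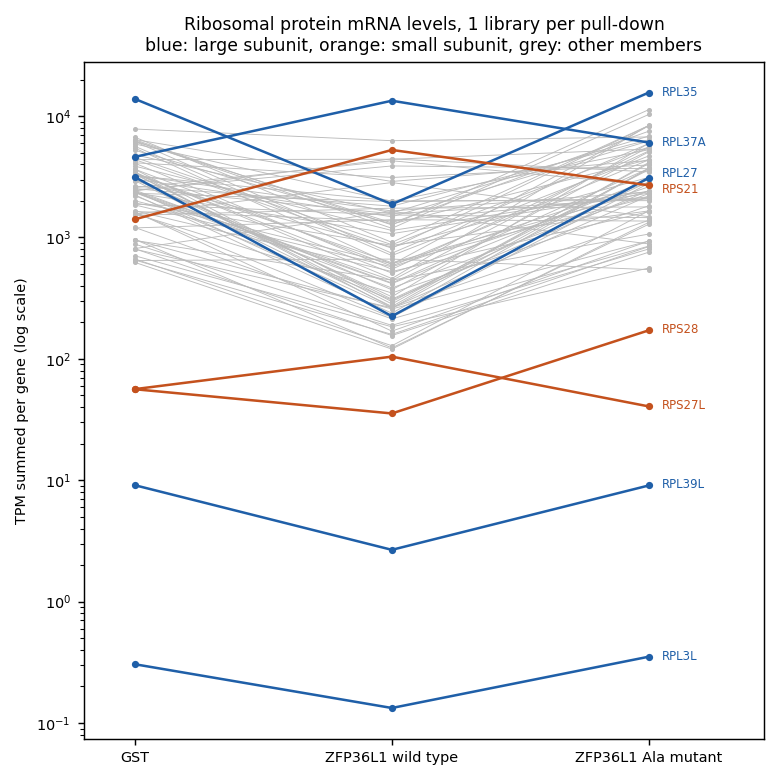
TPM summed per gene (log axis) for each of the 80 measured members in the 3 libraries, with 8 members in colour and the others in grey. Most lines dip at wild type, as RPL27 does from 3143 to 224.7 TPM, while RPS21 and RPL37A peak there.

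In all, 10 of the 80 measured members went against the group, with a log2 ratio of wild type over GST above 0. Over all genes tested it was above 0 in 6951 of 14082.
RPS21, a small-subunit protein that lies beside RPSA, had 7153, 23318 and 13336 estimated counts and 1413, 5262 and 2690 TPM for GST, wild type and Ala. It was 3.08-fold higher with wild type than with GST (log2 1.62, interval 1.58 to 1.66) and also higher with Ala (log2 1.04). RPL37A, a zinc-binding protein of the large subunit, had 4618, 13390 and 6056 TPM and was 2.75-fold higher (log2 1.46, interval 1.44 to 1.48). In both, the GST library was the lowest and the wild-type library the highest of the 3. The other 8 were under 2-fold. RPS23, which reaches into the decoding centre, had 2576, 4285 and 2714 TPM (log2 0.83). RPL23A, a docking site of the signal recognition particle, had 810.9, 1639 and 885.8 TPM (0.80), and RPL15 had 2419, 4443 and 3473 TPM (0.75). RPS7 had 1555, 2834 and 1483 TPM (0.72). In RPS23, RPL23A and RPS7 the GST and Ala levels were close together and the wild-type level stood above both, the mirror image of RPL27 and RPL12. RPS27L had a log2 ratio of 0.55, RPS20 of 0.27, RPL35A of 0.15 and RPL9 of 0.06. RPS27A, made as a fusion with ubiquitin, was almost level, with 646, 663.7 and 543.6 TPM (log2 -0.11 on counts), and is the member whose sign depends on the scaling: it turned positive when libraries were scaled to totals that left out mitochondrial genes and the 20 genes with most counts.

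**Figure D3:**
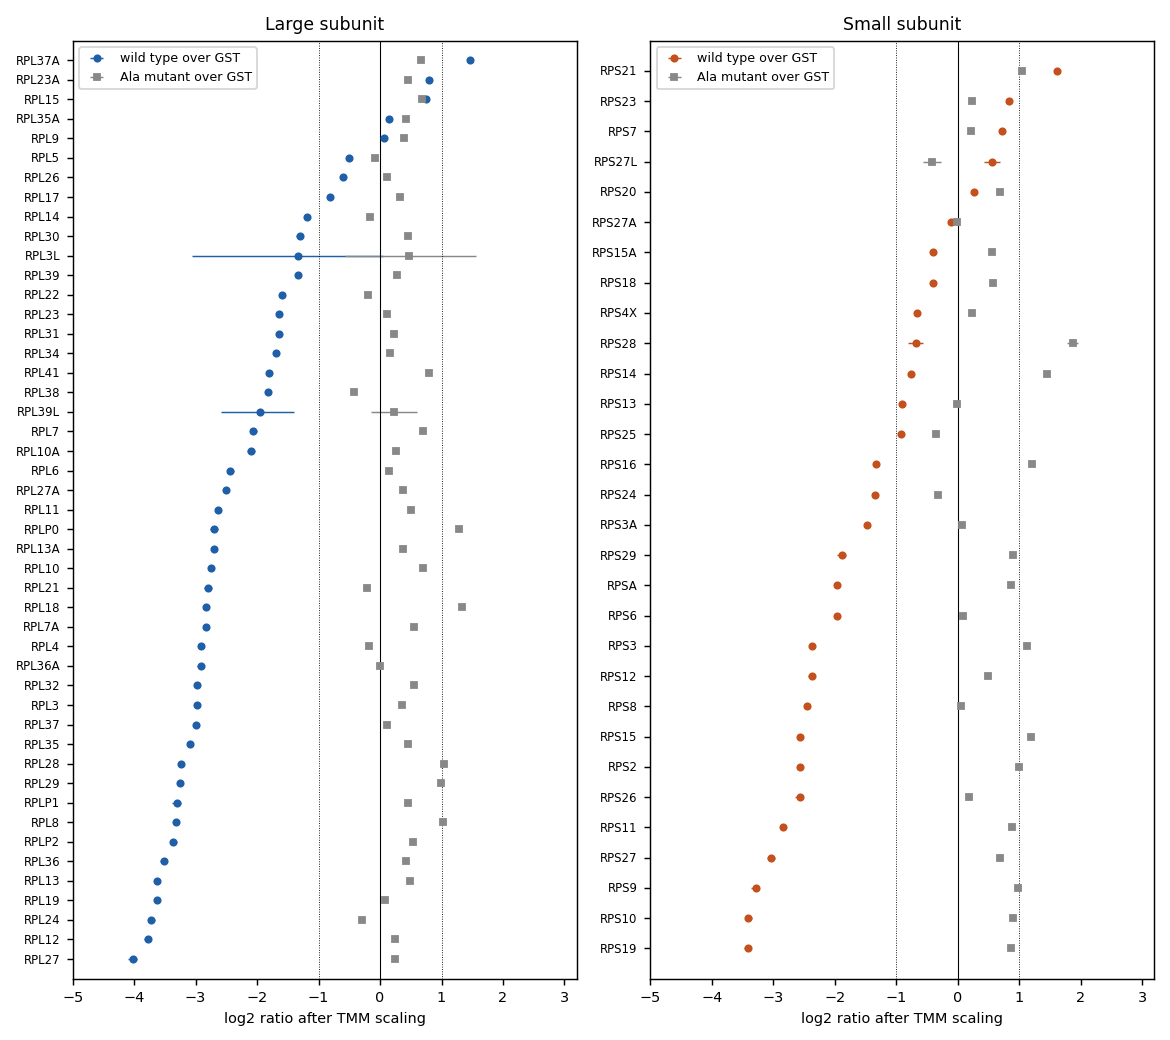
Log2 ratio (x axis) of wild type over GST (circles) and Ala over GST (grey squares) for the measured members other than a few not shown, ordered by the first, with 95% counting intervals as bars and dotted lines at 2-fold. Circles run from -4.02 (RPL27) to 1.62 (RPS21), and squares from -0.42 (RPL38) to 1.87 (RPS28).

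Members that work together in the ribosome were not always alike. The 3 proteins of the stalk, which recruits the translation factors, were all lower with wild type than with GST: RPLP0 by a log2 ratio of -2.71, RPLP1 by -3.31 and RPLP2 by -3.37. The partners that carry 5S ribosomal RNA into the large subunit, and that can bind MDM2 when free, differed. RPL5 had 1882, 1533 and 1457 TPM (log2 -0.50), while RPL11 had 4569, 872.2 and 5566 TPM (-2.63). Of 8 proteins around the exit of the peptide tunnel 5 were lower, from RPL19 at -3.63 to RPL23A at 0.80. RPL17, at 4125, 3122 and 3956 TPM, and RPL26 were the others within 2-fold. Of 8 proteins along the mRNA path of the small subunit 5 were lower, RPS9 the most (-3.29), and RPS14 (-0.76), RPS28 (-0.68) and RPS23 (0.83) were not.

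A few ribosomal proteins have a second gene whose symbol ends in L. RPS27L, a p53-induced copy of RPS27, stood at 56.32 TPM with GST, 104.3 with wild type and 40.57 with Ala, while RPS27 stood at 4089, 547 and 5162 TPM. The copy thus had a log2 ratio of 0.55 for wild type over GST and its parent one of -3.04. The libraries ranked in opposite order in the pair. RPL39 (2335, 1075 and 2320 TPM; log2 -1.33) and its rare copy RPL39L (9.094, 2.67 and 9.055 TPM; -1.96, interval -2.59 to -1.40) were both lower. RPL3, which lies near the peptidyl transferase centre, was lower (2339, 383.8 and 2302 TPM; -2.98). Its muscle form RPL3L had only 15, 6 and 19 counts, and its log2 ratio of -1.33 had an interval from -3.06 to 0.04. RPL10 was lower (-2.75). RPS4X, encoded on the X chromosome, had a log2 ratio of -0.67. Symbols ending in A, such as RPL37A, name separate proteins and not copies of the gene without the letter: RPL37, at -2.99, and RPL37A, at 1.46, lay far apart.

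The Ala mutant did not share the lower level. Between Ala and GST 0 of 80 members were lower and 12 were higher, against 5.13% and 9.0% of all genes, so the share of higher members, 15%, was not far above that of all genes. The median log2 ratio was 0.44 (0.04 over all genes), with 0.39 in the large and 0.62 in the small subunit. Among the highest were RPS28, near the point where mRNA leaves the small subunit, RPS14 and RPL18. RPS28 had 56.2 TPM with GST, 35.5 with wild type and 171.8 with Ala (log2 1.87 for Ala over GST). RPS14 had 2648, 1811 and 6376 TPM (1.46). In both the Ala library was highest and the wild-type library lowest. RPL18 had a log2 ratio of 1.34, followed by RPLP0 (1.28), RPS16 (1.21), RPS15 (1.19), RPS3 (1.13), RPL28 (1.04), RPS21 (1.04) and RPL8 (1.03). Of the 8 small-subunit proteins on the mRNA path 4 were among the 12. Towards the other end were RPL38 (-0.42), RPS25 (-0.36), RPS24 (-0.32) and RPL24 (-0.29), all within 2-fold. The number of higher members was not stable: it was 6 with library totals that left out mitochondrial genes and the genes with most counts, 7 on deposited TPM and 20 when a gene was represented by its most abundant protein-coding transcript.

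Set directly against the Ala mutant, wild type had 62 lower members and 0 higher, against 36.0% and 30.1% of all genes. This comparison shares a library with each of the other comparisons and is not independent of them. The median log2 ratio was -2.66, with -2.82 in the large and -2.53 in the small subunit. Among the lowest were RPL8 (-4.35), RPS10 (-4.30), RPL28 (-4.28) and RPS19 (-4.28). RPL8 had 5445, 600 and 8313 TPM for GST, wild type and Ala, the highest level in the Ala library. RPS27L (0.97), RPL37A (0.80), RPS23 (0.59), RPS21 (0.58) and RPS7 (0.50) were the highest, all under 2-fold. With a fit on GC content and length removed, 5 of 80 members were at least 2-fold higher than with Ala, against 23.8% of all genes.

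Base composition moved with these ratios, in the members as in all genes. Across the 80 members, Spearman's correlation between the GC content of the most abundant transcript and the log2 ratio was -0.49 for wild type over GST, 0.63 for Ala over GST and -0.65 for wild type over Ala. Over 14081 genes with a value it was -0.59, 0.54 and -0.67. These are correlations across genes of the same libraries and are given as descriptions. The same within the members was -0.04 for transcript length, 0.13 for 3′ UTR length and -0.08 for mean TPM, for wild type over GST. Members with no annotated 3′ UTR count as 0 bases there. Within each class of GC content the members still lay below all genes. Under 45% GC their median was -1.07 (12 members) against 0.87, from 45 to 50% it was -1.69 (27) against 0.15, from 50 to 55% it was -2.63 (25) against -0.79, and from 55% up it was -3.16 (16) against -2.34. The distance was thus smallest among GC-rich mRNAs.

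With a cubic fit on GC content and length removed, the members' median relative to all genes was -1.09 for wild type over GST, compared with -2.20 without the fit. In that residual 42 of 80 members were at least 2-fold lower, against 22.6% of all genes, and 5 at least 2-fold higher, against 22.8%. Those 5 were RPS21, RPL37A, RPL15, RPL23A and RPS7. RPS21 (52.3% GC) and RPL37A (51.6% GC) stood furthest from what their composition gave, with residuals of 3.05 and 2.77, and RPL27 (47.3% GC) at the other end with -3.40. For Ala over GST the median was 0.15 and 3 members, RPS14 and RPS28 among them, were at least 2-fold higher, against 4.35% of all genes.

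**Figure D4:**
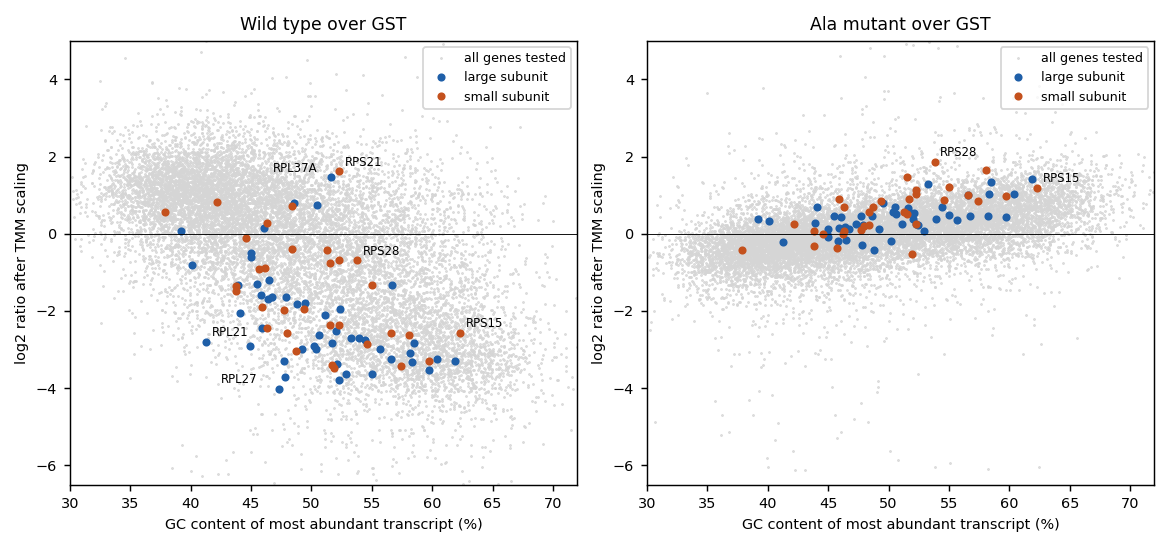
Log2 ratio (y axis) against GC content of the most abundant transcript (x axis) for all genes tested (grey) and for large-subunit (blue) and small-subunit (orange) members. Ratios of wild type over GST decline with GC content (Spearman's correlation -0.49 in the members) and those of Ala over GST climb (0.63), with RPS21 and RPL37A standing above their neighbours in the first. A few grey genes fall outside the axes.

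Summed over all their transcripts, members with UAUUUAU in the most abundant coding transcript were not higher with wild type than with GST. The values here are such gene sums, and the transcript that holds the site can be a small part of its gene. The 6 had a median log2 ratio of -1.65 for wild type over GST, from -2.99 to -0.67, and 5 of them were lower. The 71 without it had a median of -2.37, with 50 lower and 2 higher. By transcript, among coding ones with a mean of at least 100 counts, the 10 with the site had a median of -1.24. Of these, 6 were lower and 1 higher. The 210 without it had a median of -2.41, with 153 lower and 18 higher. Many of these transcripts share most of their sequence with others, so this gap rests on uncertain splits. Among those that pass the limit on sequence of their own given below, the medians lay close together. They were -1.16 for the 7 with the site and -1.24 for the 38 without it. RPL37, whose shown window lies at position 95 of its 3′ UTR, was the lowest of the 6, with 5637, 710 and 4695 TPM (-2.99). RPS26, an mRNA-path protein, had 806.3, 155.6 and 756.8 TPM (-2.57). RPL14 had 3243, 1654 and 2376 TPM (-1.19), and RPS4X had 2314, 1973 and 2081 TPM (-0.67). In all 6 the wild-type library held the lowest share of the 3.

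The tables give transcripts as well as genes, and here the length of the 3′ UTR went with the ratio. Of 307 member transcripts with a mean of at least 100 counts, 232 were annotated as protein-coding. Those with 3′ UTRs of 0 to 50 bases had a median log2 ratio of wild type over GST of -2.80 (86 transcripts), those of 51 to 100 bases -2.44 (53), above 100 and up to 200 bases -1.40 (36), above 200 and up to 400 bases -1.80 (17) and above 400 bases -1.34 (40). The shortest class includes coding transcripts with no annotated 3′ UTR, which count as 0 bases in the correlations given here too. Spearman's correlation was 0.26 over the 232 transcripts of 78 genes. Transcripts of a gene share most of their sequence, and the split between them is an estimate. Only 71 of the 307 had at least 25% of their 31-base words in no other transcript, and 43 had none, so the isoforms compared with their genes below are those that pass that limit. Over the 46 coding transcripts that passed it, from 34 genes, the correlation was 0.38. For Ala over GST it was -0.33 over the 232 and -0.47 over the 46, and for wild type over Ala 0.36 and 0.52. Across the 80 genes it was 0.13 for wild type over GST. The ratios also moved with GC content, whose part in these correlations was not tested.

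Among these 46 well-resolved coding transcripts, 11 stood at least 2-fold above the ratio of their own gene and 5 at least 2-fold below it. In 6 genes whose summed log2 ratio was below 0, a well-resolved coding transcript had one above 0, with 3′ UTRs of 276 to 2265 bases. Such lengths were common among the 46, whose median 3′ UTR was 500 bases, against 433 in the 11. Of the 46, those above 200 and up to 400 bases had a median log2 ratio of 0.19 (7 transcripts). Those above 400 bases had -0.86 (26). RPS3-217, with a 3′ UTR of 1303 bases, had 725, 2076 and 823 counts for GST, wild type and Ala (log2 1.43 for wild type over GST), while the RPS3 gene was at -2.37. Its share of the gene's counts was 1.46% with GST, 20.4% with wild type and 0.837% with Ala. RPL23-206, with a 3′ UTR of 2265 bases and the UAUUUAU shown above, had 736, 1985 and 716 counts (log2 1.35) against -1.64 for RPL23. RPL34-203, with 433 bases and no UAUUUAU, had 643, 1498 and 691 counts (log2 1.14) against -1.69 for RPL34. In each of the 3 the GST and Ala libraries were close together and the wild-type library stood above both, so the long isoform and its gene had ratios of opposite sign. RPL31-210 (log2 0.85), RPS3-209 (0.55), RPL36A-202 (0.19) and RPS27A-201 (1.49) were the other 4.

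A long 3′ UTR did not always go with a higher ratio. RPS19-206 (1549 bases) had 6997, 564 and 6090 counts, a log2 ratio of -3.71, and RPL27A-201 (4066 bases) had 13939, 2449 and 10856 counts (-2.59). RPLP1-201 (687 bases) was at -3.54 and RPL14-201 (6355 bases, with 3 UAUUUAU) at -2.43. In RPL37 both forms hold the site: RPL37-201, with a 3′ UTR of 7242 bases, had 2005, 948 and 1506 counts (-1.16), and RPL37-204, with 277 bases, had 6881, 628 and 10618 counts (-3.53). In RPL37A the long form stood above its gene. RPL37A-210, with 2682 bases, had 4882, 22749 and 6915 counts, a log2 ratio of 2.14 against 1.46 for the gene.

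**Figure D5:**
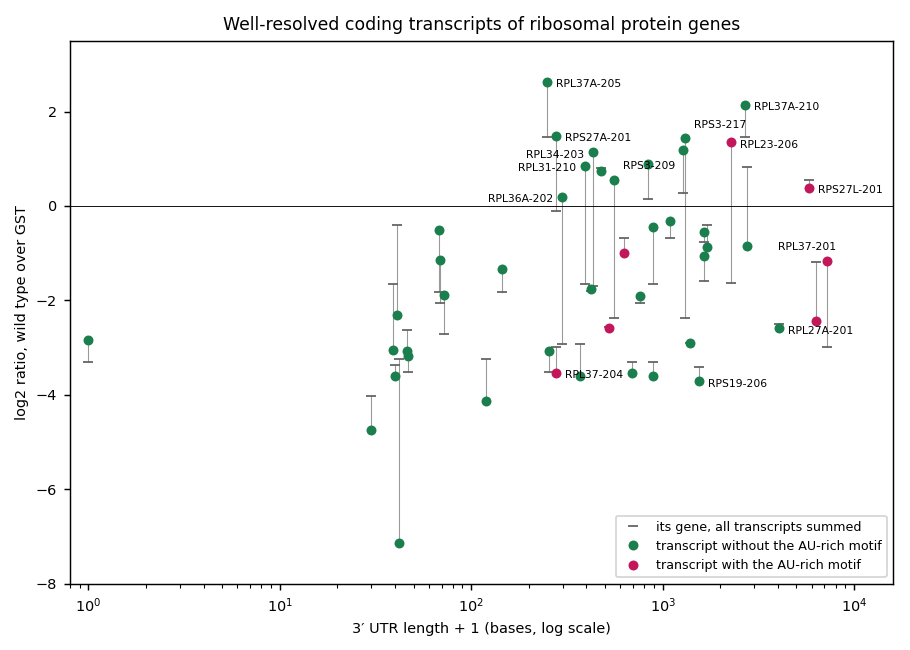
Log2 ratio of wild type over GST (y axis) against 3′ UTR length plus 1 (log x axis) for the 46 well-resolved coding transcripts, each joined to a dash at the ratio of its gene. RPS3-217, RPL23-206 and RPL34-203 lie above 0 while their genes lie below it, and RPS19-206 and RPL27A-201 stay low with long 3′ UTRs. Pink points hold UAUUUAU, and the lowest point, RPL28-208, had 0 counts with wild type, so its place depends on the prior count.

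Among 14 well-resolved transcripts annotated with a retained intron, 9 were lower with wild type than with GST and 3 higher. Of the 46 well-resolved coding transcripts, 26 were lower and 7 higher. The median log2 ratio was -1.56 in the 14 and -1.25 in the 46. Of the 14, 1 stood at least 2-fold below its gene and 2 stood far above theirs. RPS18-235 (chr6:33275866-33276510) had 35 counts with GST, 7374 with wild type and 623 with Ala, and took 0.0752%, 20% and 1.0% of the RPS18 counts. Its log2 ratio of wild type over GST was 7.62, against -0.41 for the gene. RPL26-202 (chr17:8377526-8380084) had 118, 6257 and 298 counts (log2 5.64, against -0.60 for RPL26) and took 14.8% of the gene with wild type. In both the wild-type library held nearly all of the signal, and without these transcripts both genes would stand lower in that library. Over all members, transcripts with a retained intron took 6.88% of the counts with GST, 11% with wild type and 5.69% with Ala.

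The 5 lowest transcripts were RPL24-206, RPL13A-202, RPL22-207, RPL32-208 and RPS3-202, with 8559, 6388, 6305, 3486 and 2686 counts with GST and 0 with wild type. None of the 5 passes the limit on sequence of its own, so a shift of the estimate to a sister transcript cannot be told apart from a loss. In all, 18 member transcripts with a mean of at least 100 counts were at 0 with wild type. The isoforms of RPS21 and RPL15 do not pass it either, so only their gene sums, which do not depend on that split, are read.

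Reads could also be shared with other genes. Between 2.64% (RPL28) and 47.4% (RPS10) of a member's 31-base words were also in transcripts of other genes, with RPS2 at 46.6% and RPL10 at 44.6%, which makes the counts of these 3 the least certain. Spearman's correlation between that share and the ratio of wild type over GST was 0.01. The 1124 pseudogenes named after a member held 2.26% of the members' counts with GST, 1.67% with wild type and 1.81% with Ala.

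Other genes of the translation machinery, taken from lists that overlap, are given beside the 34.2% of all genes lower and 25.5% higher with wild type than with GST. Of 25 other mRNAs of the TOP class 15 were lower with wild type than with GST and 3 higher. RACK1, a scaffold protein of the small subunit, had 5250, 399 and 5840 TPM (log2 -4.00), close to RPL27. NPM1, a nucleolar chaperone, had 3410, 16500 and 2680 TPM (1.78), and BTF3, part of the nascent chain complex, had 2240, 10100 and 1310 TPM (1.79). The third was PABPC1, the poly(A)-binding protein (1.31). With Ala 0 of the 25 passed in either direction against GST.

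Of 6 ribosomal protein genes that the rule leaves out, 3 were lower, among them FAU (-3.05), which encodes RPS30, and RPL36AL (-3.09), and RPL7L1, a biogenesis factor, was higher (1.5). RPL22L1 (0.65) and RPL26L1 (0.52) were within 2-fold. Of 29 measured genes of ribosome biogenesis 16 were lower and 3 higher, with SBDS, which helps to release EIF6 from the large subunit, at 1.99 and EIF6 itself at -3.36. Of 17 genes of elongation and nascent chain targeting 8 were lower and 6 higher. The median relative to all genes was -1.37, -1.18, -1.16 and -0.80 in these 4 lists, against -2.20 in the members.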

How the data were processed

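The 3 deposited tables hold 1 library each. The submitters' processing notes name kallisto, DESeq2 and hg19, whose versions and roles, like the annotation, were not given in the sources read. The authors' tables give estimated counts and TPM per transcript, with length and effective length as other columns. Identifiers joined to GENCODE 29 (GRCh38) for 181857 of 196354 transcripts (92.6%); rows left out held 3.92%, 3.79% and 4.2% of the counts for GST, wild type and Ala.

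Estimated counts were summed per gene, rounded, kept at a mean of at least 10 and scaled by TMM (edgeR 4.0.16; factors 1.03, 1.05 and 0.933). For log2 ratios the prior count was 0.5, with exact Clopper-Pearson 95% intervals on the split of counts, which cover counting error only. With 1 library per group no test was possible. The script was tested on simulated data. Members and lists were chosen with earlier results of these data known. Genes were named by rank within each comparison, by sign, by copies and by the UAUUUAU site, and pathway genes as the farthest or most abundant. Alternatives covered scaling (DESeq2 1.42.0), TPM, minimum and prior count, transcripts summed, shared sequence and composition. The limit on shared sequence left out 0 members, so that alternative could not change a value. A few members and listed genes are counted but not reported here by name. Calculations used Python 3.11.15 and R 4.3.3.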

Additional observations from a re-analysis of the deposited data

How the results depend on the processing

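No paired analysis was possible because each protein has 1 library, and leaving out a library would end the comparison. Over the alternatives run, the members lower with wild type than with GST numbered 42 to 62, and those lower than with Ala 47 to 67, against 58 and 62 as reported. With the fit on GC content and length removed, the median relative to all genes was -1.09 for wild type over GST, 0.15 for Ala over GST and -1.25 for wild type over Ala, and the members higher numbered 5, 3 and 5. Using only the most abundant protein-coding transcript, 6 members were higher with wild type than with GST, 3 lower and 20 higher with Ala than with GST, and 1 higher with wild type than with Ala. Members higher with Ala than with GST numbered 6 with totals that left out mitochondrial genes, ribosomal RNA and the 20 genes with most counts, and 7 with deposited TPM. Higher with wild type than with Ala were 1 with total counts, 2 with totals without those genes, 2 with deposited TPM and 1 with no minimum count. The cause of these shifts was not tested. No summary value changed sign. Medians relative to all genes and differences between the subunits are fixed under a library scaling, so the scaling alternatives do not test these. The median over all genes shifted by 0.11, -0.21 and 0.32 in the 3 comparisons with the totals without those genes, and with total counts by 0.03, -0.14 and 0.17. With the first, 10 members near 0 changed sign for Ala over GST and RPS27A did for wild type over GST. The rank correlation of 3′ UTR length with the ratio went from 0.26 to 0.38 with well-resolved transcripts, a choice made after seeing the data. Counting intervals were widest for RPL3L and RPL39L.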
